A study of Mus musculus with 3 samples.

Results

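Id proteins and E proteins are helix-loop-helix factors that bind one another, and the 7 genes described here encode both sides of that pairing. Id1, Id2, Id3 and Id4 are the 4 Id genes of the mouse, and Tcf3, Tcf4 and Tcf12 are the 3 E protein genes. They were taken by symbol from 24421 gene symbols, and all 7 were present. RNA was sequenced from granulocyte progenitors, marrow cells committed to making neutrophils, in 3 libraries with 1 library per group. The IRF8-deficient library came from female C57BL/6 (H-2b) mice that genetically lack the function of IRF8, a transcription factor of monocyte and dendritic cell development. The 4T1-TB library came from female F1 semi-syngeneic (H-2b/d) mice carrying orthotopic 4T1 mammary tumors, and the NTB library came from female F1 mice of the same strain without tumors. Cells of all groups were sorted from bone marrow by flow cytometry. Strain differs together with genotype, so in any comparison of the IRF8-deficient library these cannot be told apart. The sources used here give neither the age of the mice nor how many mice went into a library, nor the kind of Irf8 allele.

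E proteins bind DNA at E-boxes through a basic region, either as pairs of E proteins or with a tissue-restricted partner such as TAL1 or LYL1. Id proteins carry the helix-loop-helix but no basic region, so a pair of an Id and an E protein does not bind DNA. In bone marrow E proteins are best known for B cell, T cell and plasmacytoid dendritic cell development, and ID2 for innate lymphoid and dendritic cells. ID1 is a classical target of BMP signalling and responds to cytokines in myeloid progenitors. The symbols can mislead: Tcf3 encodes E2A, with the splice products E12 and E47, Tcf4 encodes E2-2 and Tcf12 encodes HEB. TCF7, TCF7L1 and TCF7L2, the factors of WNT signalling, are a different family with rows of their own.

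The structural difference between the classes can be read in the mouse coding sequences on mm10, from GENCODE M21 transcripts. The stretches below are the helix-loop-helix of the genes on which the results turn. Capitals mark the stretch that aligns with the helix-loop-helix of Id2, and lower case marks the 13 codons before it in the E proteins, which hold the basic region. Codons are counted from the start codon, and the codon numbers given are those of the capitals. The coordinates span all printed bases, lower case included.
Id1, codons 61 to 99 of 148, chr2:152736521-152736637, plus strand: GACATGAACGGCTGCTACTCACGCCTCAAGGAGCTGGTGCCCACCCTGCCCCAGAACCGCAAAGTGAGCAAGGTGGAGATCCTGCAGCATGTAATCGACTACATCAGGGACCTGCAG
Id2, codons 38 to 76 of 134, chr12:25095783-25095899, minus strand: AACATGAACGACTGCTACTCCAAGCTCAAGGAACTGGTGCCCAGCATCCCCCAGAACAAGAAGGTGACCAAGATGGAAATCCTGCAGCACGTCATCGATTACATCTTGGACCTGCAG
Tcf3, codons 563 to 602 of 653, chr10:80412840-80412998, minus strand: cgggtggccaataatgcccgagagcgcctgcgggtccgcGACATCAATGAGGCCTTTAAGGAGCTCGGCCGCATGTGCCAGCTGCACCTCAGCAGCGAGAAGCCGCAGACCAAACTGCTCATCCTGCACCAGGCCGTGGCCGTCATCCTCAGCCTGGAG
Tcf12, codons 616 to 655 of 706, chr9:71856318-71856476, minus strand: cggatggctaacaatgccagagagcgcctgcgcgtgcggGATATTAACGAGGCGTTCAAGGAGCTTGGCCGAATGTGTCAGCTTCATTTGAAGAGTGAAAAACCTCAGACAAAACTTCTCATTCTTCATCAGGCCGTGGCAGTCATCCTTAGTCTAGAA
Id1 and Id2 had the same base at 95 of 117 positions, or 81.2%. Tcf3 and Tcf12 had the same base at 124 of 159 positions, or 78.0%, basic region included. Id2 and Tcf3 had the same base at 51.3% of 117 aligned bases. The longest identical run between the Id1 and Id2 transcripts was 11 bases.

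A promoter window in RefSeq (GRCm38.p6) was matched for 5 of the 7 members. The 250 bases before the RefSeq start of Id2, the member with the largest difference between libraries, are shown with the motif matches in capitals. GENCODE also lists an Id2 transcript that starts further upstream, so the window lies within the gene as GENCODE draws it.
Id2, chr12:25096093-25096342, minus strand: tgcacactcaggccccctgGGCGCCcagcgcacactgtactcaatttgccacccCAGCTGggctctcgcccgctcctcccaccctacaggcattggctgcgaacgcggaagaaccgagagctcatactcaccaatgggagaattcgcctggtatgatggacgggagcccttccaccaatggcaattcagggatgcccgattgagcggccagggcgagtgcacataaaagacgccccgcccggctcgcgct
The capitals are GGCGCC, a GC-rich SMAD site, starting at position -231 from the start, and the E-box CAGCTG at position -196. Over 32851 windows of the same length, 250 bases before and 50 after a start, GGCGCC was found in 11.9% and an E-box, CANNTG, in 72.3%, both strands searched. Neither TTNNGNAA (C/EBP), TTCNNNGAA (STAT), GAGGAAGT (a PU.1 type site) nor the IRF site motif matched in the Id2 window. These motifs were found in 40.7%, 8.3%, 3.2% and 3.44% of all windows. A match is a description of the letters and not of a bound site.

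The depth behind the levels was recovered from the deposited RPKM (reads per kilobase of gene model, relative to library size), which stood in ratios of whole numbers. It came to 36941878 reads in the IRF8-deficient library, 24031470 in 4T1-TB and 43485998 in NTB. Irf8 stood at 13.7 RPKM in IRF8-deficient, 8.6 RPKM in 4T1-TB and 43.8 RPKM in NTB. It was thus lower than in NTB in both other libraries, but not absent in IRF8-deficient, and a gene level value does not show which exons the reads came from. All 12 granulocyte progenitor markers were at 1 RPKM or more in every library, and their summed level was 10868.3 RPKM in IRF8-deficient, 21314.9 RPKM in 4T1-TB and 17824.5 RPKM in NTB. Not all 12 followed that sum, as given with the other markers below. Markers of late neutrophils, the cells these progenitors become, summed to 147828.3 RPKM in IRF8-deficient, 14396.3 RPKM in 4T1-TB and 10283.1 RPKM in NTB. With 1 library per group there was no replicate check and no statistical test. Intervals below are 95% intervals that cover counting error only, and not the spread between mice. They are exact except for the Id to E ratio, where they are approximate.

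Among the Id genes, Id2 stood highest in every library. Id2 was at 106 RPKM in IRF8-deficient (3520 reads, interval 102.5 to 109.5), 22.2 RPKM in 4T1-TB (626 reads, 20.5 to 24.0) and 13.8 RPKM in NTB (785 reads, 12.8 to 14.8). The 3 intervals do not overlap, and the IRF8-deficient library stands far above the other libraries. The 3 intervals of Tcf4, given below, do not overlap either. The share of all genes without overlap is not given here, so this is a description of Id2 only. The Id2 RPKM in IRF8-deficient was 7.69-fold that of NTB (interval 7.12 to 8.32), a difference of 2.86 on log2(RPKM + 1). By that difference Id2 ranked 94 from the highest of 10658 genes compared.

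Id1 kept the same order of libraries at a lower level. Id1 was at 33.6 RPKM in IRF8-deficient (820 reads, 31.4 to 36.0), 13.7 RPKM in 4T1-TB (285 reads, 12.2 to 15.4) and 7.43 RPKM in NTB (311 reads, 6.63 to 8.31). These intervals do not overlap either. The limit stated for the Id2 intervals holds here too. In IRF8-deficient the Id1 level was 4.52-fold that of NTB (3.96 to 5.17), a difference of 2.04 on log2(RPKM + 1).

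The remaining Id genes were at the floor. Id3, which restrains E proteins in lymphocytes, had 1 read in IRF8-deficient, a level of 0.0402 RPKM, and 0 reads in 4T1-TB and in NTB. A count of 0 allows up to 0.142 RPKM in 4T1-TB and 0.0703 RPKM in NTB, the level of 3 reads. Id4, known mostly from the nervous system and mammary epithelium, had 0 reads in all 3 libraries, which allows up to 0.0298 RPKM in IRF8-deficient, 0.0351 RPKM in 4T1-TB and 0.0174 RPKM in NTB at its annotated exon length of 3849 bases. No fold is given for Id3 or Id4. The Id transcripts detected in these progenitors were thus those of Id1 and Id2.

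**Figure D1:**
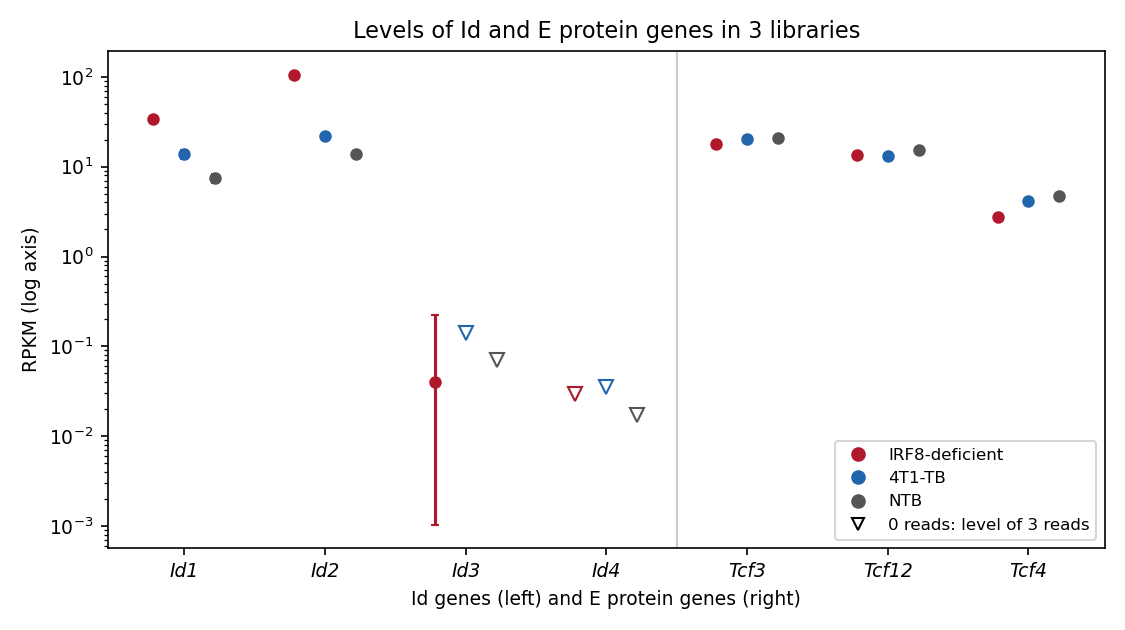
RPKM on a log axis of the 4 Id genes (left) and 3 E protein genes (right) in the IRF8-deficient, 4T1-TB and NTB libraries, 1 library each. Bars are exact 95% Poisson intervals of counting error, shorter than the points for most genes, and open triangles mark the level of 3 reads where 0 reads were found; Id1 and Id2 spread apart between libraries while the E protein genes lie close together.

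The E protein genes spanned a much narrower range across the 3 libraries. Tcf3 was at 17.7 RPKM in IRF8-deficient (1641 reads, 16.9 to 18.6), 20.3 RPKM in 4T1-TB (1602 reads, 19.4 to 21.4) and 20.8 RPKM in NTB (3301 reads, 20.1 to 21.5). The 4T1-TB and NTB intervals overlap, and the IRF8-deficient level was 0.853-fold that of NTB (0.803 to 0.905). The gene level value does not separate E12 from E47.

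Tcf12 was at 13.4 RPKM in IRF8-deficient (1769 reads, 12.8 to 14.0), 13.1 RPKM in 4T1-TB (1475 reads, 12.5 to 13.8) and 15.2 RPKM in NTB (3448 reads, 14.7 to 15.7). The IRF8-deficient and 4T1-TB intervals overlap, with both below NTB. Tcf4 was the lowest of the E protein genes, at 2.74 RPKM in IRF8-deficient (550 reads, 2.52 to 2.98), 4.10 RPKM in 4T1-TB (700 reads, 3.81 to 4.42) and 4.72 RPKM in NTB (1623 reads, 4.49 to 4.95). It showed the largest E protein difference, 0.581-fold in IRF8-deficient against NTB (0.527 to 0.641), or -0.61 on log2(RPKM + 1). That ranked it only 1667 from the lowest of all genes compared.

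Order of levels within a library differed between groups. In IRF8-deficient the order was Id2, Id1, Tcf3, Tcf12 and Tcf4, with no overlap between neighbours. In 4T1-TB Id2 and Tcf3 overlapped at the top, Id1 and Tcf12 overlapped below them, and Tcf4 was last. In NTB Tcf3 was highest, Tcf12 and Id2 overlapped next, and Id1 and Tcf4 followed. Among all compared genes Id2 stood above 94.6% in IRF8-deficient, 68.5% in 4T1-TB and 54.4% in NTB, whereas Tcf3 stood above 60.9% in IRF8-deficient, 65.9% in 4T1-TB and 68.1% in NTB.

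Because RPKM is per length, the classes can be summed within a library, and the ratio of the sums is free of library scaling. Id genes summed to 139.6 RPKM in IRF8-deficient, 35.9 RPKM in 4T1-TB and 21.2 RPKM in NTB. E protein genes summed to 33.8 RPKM in IRF8-deficient, 37.6 RPKM in 4T1-TB and 40.7 RPKM in NTB. The Id to E ratio was therefore 4.13 in IRF8-deficient (3.95 to 4.31), 0.956 in 4T1-TB (0.888 to 1.03) and 0.521 in NTB (0.489 to 0.555). Id transcripts outnumbered E protein transcripts in IRF8-deficient, had a ratio with an interval that includes 1 in 4T1-TB, and were fewer in NTB. Against NTB the ratio was 7.92-fold in IRF8-deficient and 1.83-fold in 4T1-TB. These are RNA ratios and say nothing of protein amounts.

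The makeup of the Id class differed less than its sum. Id2 made up 75.9% of the Id sum in IRF8-deficient, 61.7% in 4T1-TB and 65.0% in NTB, and Id1 made up nearly all the rest. Tcf3 made up 52.3% of the E protein sum in IRF8-deficient, 54.1% in 4T1-TB and 51.0% in NTB. Tcf4 had the smallest share, 8.1% in IRF8-deficient, 10.9% in 4T1-TB and 11.6% in NTB.

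**Figure D2:**
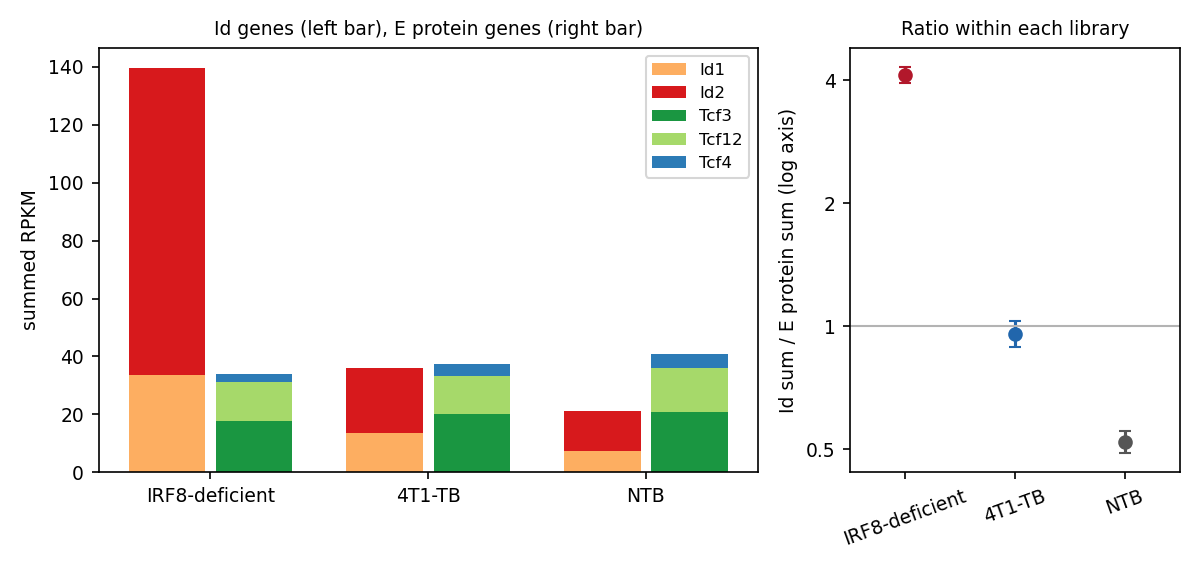
Summed RPKM of the Id and E protein genes in the IRF8-deficient, 4T1-TB and NTB libraries, stacked by gene, beside the ratio of the sums with its 95% interval of counting error. The ratio is 4.13 in IRF8-deficient, 0.956 in 4T1-TB and 0.521 in NTB, and the E protein bars stay between 33.8 and 40.7 RPKM.

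To read the members against all genes, a 2-fold difference on log2(RPKM + 1) was the call, for genes with at least 1 RPKM in 1 or more libraries. Of the 7 members 5 were compared, and Id3 and Id4 fell below that minimum. In IRF8-deficient against NTB, 2 of the 5, Id1 and Id2, were called higher and 0 were called lower, beside 8.78% of all genes called higher and 5.73% called lower. In IRF8-deficient against 4T1-TB the same 2 members were called higher, beside 8.83% of all genes higher and 7.07% lower. There the difference was 1.23 for Id1 (2.45-fold, 2.14 to 2.81) and 2.21 for Id2 (4.78-fold, 4.39 to 5.21), and the 3 E protein genes lay between -0.45 and 0.03.

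In 4T1-TB against NTB 0 of the 5 members were called, beside 3.02% of all genes called either way, 1.67% higher and 1.35% lower. Id1 differed by 0.81 (1.85-fold, 1.57 to 2.18) and Id2 by 0.65 (1.61-fold, 1.45 to 1.79), both short of the call but with intervals above 1. By that difference Id1 ranked 243 and Id2 390 from the highest of all genes compared. Tcf3 differed by -0.03, Tcf4 by -0.16 and Tcf12 by -0.20. Both comparisons with NTB share the NTB library, so the order of Id1 and Id2 across libraries is not shown independently by each.

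**Figure D3:**
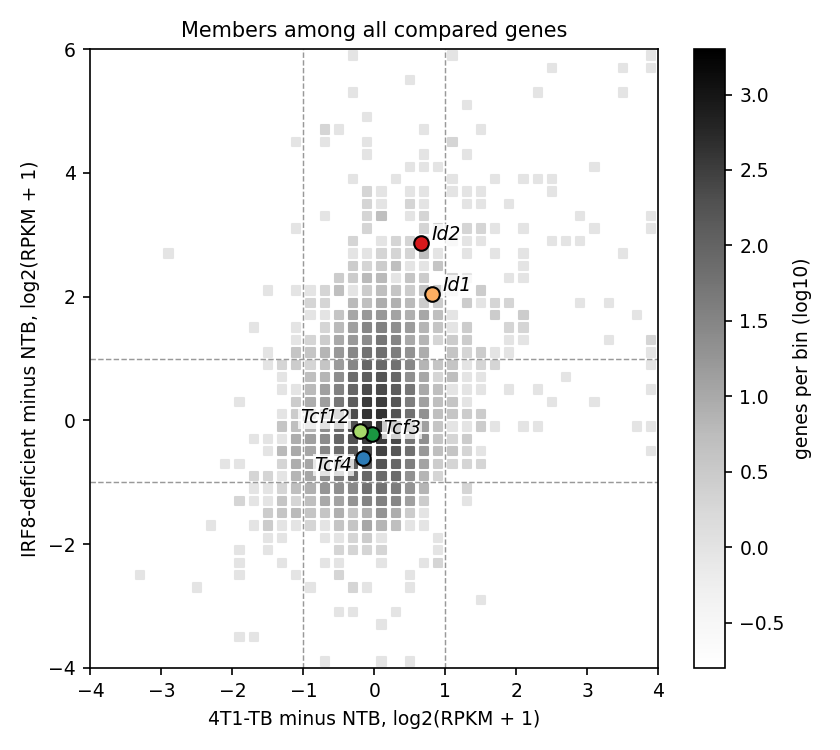
Differences on log2(RPKM + 1) of the 5 members compared, IRF8-deficient minus NTB against 4T1-TB minus NTB, over the density of all 10658 genes compared (log scale of gene number, genes beyond the axis limits not drawn). Both axes share the NTB library. Id1 and Id2 lie at 2.04 and 2.86 for IRF8-deficient, past the dashed 2-fold line. The E protein genes lie within the lines, with Tcf4 furthest from 0, at -0.61 for IRF8-deficient.

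The size of these differences depended on how the libraries were scaled. The library sizes implied by the RPKM were 0.707 times the recovered reads in IRF8-deficient, 0.924 times in 4T1-TB and 1.03 times in NTB. When libraries were scaled by their summed reads instead, the median of all genes moved to -0.50 in IRF8-deficient against NTB, where 443 genes were then called higher and 1849 lower in place of 936 and 611. Leaving the 20 highest genes of any library out of the total moved that median to -0.17, with 728 genes higher and 866 lower. With summed reads the other comparisons gave 478 higher and 1464 lower in place of 941 and 754 for IRF8-deficient against 4T1-TB (median of all genes -0.33), and 146 higher and 180 lower in place of 178 and 144 for 4T1-TB against NTB (-0.13). In IRF8-deficient against NTB Id1 then differed by 1.51 and Id2 by 2.32, still called, and Tcf3 by -0.73, Tcf4 by -0.99 and Tcf12 by -0.67, to be read against that median of -0.50. Id1 in IRF8-deficient against 4T1-TB lost its call at 0.85. The sign for Tcf3 in 4T1-TB against NTB turned to 0.01 under median ratio scaling. The sign for Tcf12 in IRF8-deficient against 4T1-TB turned to -0.02 without the 20 highest genes and to -0.33 with summed reads.

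The order of libraries seen for Id1 and Id2 also held for 12 of 16 late neutrophil markers, whereas Ltf, Camp, Ngp and Chil3, genes of neutrophil granules and secretion, were lower in 4T1-TB than in NTB. The share of all genes with that order is not given here. All 16 were called higher in IRF8-deficient against NTB, beside 8.78% of all genes, with a median difference of 4.88. In 4T1-TB against NTB 8 of the 16 were called higher, beside 1.67% of all genes, with a median of 1.01. For the marker counts below, the shares of all genes called lower were 5.73% in IRF8-deficient against NTB and 1.35% in 4T1-TB against NTB. S100a9, a calcium-binding protein of neutrophils, was at 51478.5 RPKM in IRF8-deficient, 6555.7 RPKM in 4T1-TB and 4412.9 RPKM in NTB. The part of these cells in the Id1 and Id2 levels was not tested, and in bulk RNA fewer cells of a type and less RNA per cell cannot be told apart. Markers of T, NK and innate lymphoid cells, of which the last depend on ID2, summed to 1.42 RPKM in IRF8-deficient, 1.52 RPKM in 4T1-TB and 5.48 RPKM in NTB over 14 genes, with Cd3e at 0 in every library. Of these sums Zbtb16, a transcription factor of innate-like lymphocytes and the 1 gene of the list that was compared, gave 0.554 RPKM in IRF8-deficient, 1.2 RPKM in 4T1-TB and 4.82 RPKM in NTB. Conventional dendritic cell markers summed to 10.7 RPKM in IRF8-deficient, 5.65 RPKM in 4T1-TB and 8.11 RPKM in NTB over 12 genes, with Batf3 and Ccr7 at 0 in every library. For plasmacytoid dendritic cells, which need TCF4, 14 markers summed to 39.3 RPKM in IRF8-deficient, 33.6 RPKM in 4T1-TB and 34.3 RPKM in NTB, and Ccr9, Ly6d and Klk1 were at 0 throughout. For the 5 compared the median difference in IRF8-deficient against NTB was -0.35. Of these 3 were not called, at -0.61 to -0.35, and with summed reads Runx2 among them was called lower (-1.01). The other 2 were called higher in IRF8-deficient against NTB. They were Tlr7, a receptor for single-stranded RNA, at 8.78 RPKM in IRF8-deficient and 0.959 RPKM in NTB, and Irf7, an interferon regulatory factor, at 6.84 RPKM in IRF8-deficient and 1.07 RPKM in NTB. Monocyte markers summed to 260.4 RPKM in IRF8-deficient, 137.7 RPKM in 4T1-TB and 269.7 RPKM in NTB, of which F13a1, a coagulation factor subunit, gave 163.2 RPKM in IRF8-deficient, 89.8 RPKM in 4T1-TB and 150.6 RPKM in NTB. Of the 9 monocyte markers compared, 1, Adgre1, was called higher and 3, Ly86, Klf4 and Cd14, lower in IRF8-deficient against NTB, and 0 higher and 5 lower in 4T1-TB against NTB. Marker genes other than S100a9 and F13a1 were singled out after their values were seen. Lists for endothelial and stromal cells and for erythroid cells and megakaryocytes each summed to under 3 RPKM in every library. Markers of basophils, mast cells and eosinophils summed to 11.8 RPKM in IRF8-deficient, 23.8 RPKM in 4T1-TB and 23.1 RPKM in NTB. Of the 12 granulocyte progenitor markers 2 were called higher in IRF8-deficient against NTB, Cebpe at 1.71 and Fcgr3 at 1.43. The other 10 were not called, and the list's median was -0.45. With summed reads Fcgr3 lost its call (0.89), and Mpo, Elane, Prtn3, Ctsg, Ms4a3 and Cd63 were called lower. In that setting 17.6% of all genes were called lower, and the median of all genes was -0.50.

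Genes of the BMP and TGF-beta pathway, which controls Id transcription through SMAD proteins, differed in both directions. Of 34 listed, 22 were compared. In IRF8-deficient against NTB 6 were called higher and 1 lower, with a median of 0.41 beside -0.02 for all genes, of which 8.78% were called higher and 5.73% lower. When libraries were scaled by summed reads the list's median was -0.05, beside -0.50 for all genes. Then 2 were called higher and 3 lower, beside 4.21% and 17.6% of all genes. Among ligands, Inhba, a subunit of activins, was at 40.4 RPKM in IRF8-deficient, 1.56 RPKM in 4T1-TB and 0.642 RPKM in NTB. That is a difference of 4.65 between IRF8-deficient and NTB. Tgfb1, which encodes the main TGF-beta of blood cells, was the most abundant of the list in NTB and was not called, at 36.5 RPKM in IRF8-deficient, 58.1 RPKM in 4T1-TB and 50.3 RPKM in NTB.

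Receptor levels varied: Tgfbr1, a type I TGF-beta receptor named after its value was seen, was at 17.2 RPKM in IRF8-deficient, 9.20 RPKM in 4T1-TB and 10.6 RPKM in NTB and was not called. Bmpr1a, a type I receptor for BMPs, was at 2.75 RPKM in IRF8-deficient, 2.15 RPKM in 4T1-TB and 0.562 RPKM in NTB, called higher in both comparisons with NTB at 1.26 for IRF8-deficient and 1.01 for 4T1-TB. With summed reads both calls ended, at 0.88 for IRF8-deficient and 0.91 for 4T1-TB. The 4T1-TB call also ended without the 20 highest genes (0.94) and with reads thinned to the shallowest library (0.99). Acvrl1, also a type I receptor, was at 2.38 RPKM in IRF8-deficient, 0.606 RPKM in 4T1-TB and 0.248 RPKM in NTB, a difference of 1.44 for IRF8-deficient against NTB. Tgfbr3, the co-receptor betaglycan, was called higher in IRF8-deficient against NTB at 1.16, but not with summed reads (0.83). Eng, the co-receptor endoglin, ran the other way, at 0.836 RPKM in IRF8-deficient, 1.30 RPKM in 4T1-TB and 3.89 RPKM in NTB, and was called lower in both comparisons with NTB at -1.41 and -1.09. Of the signal carriers, Smad4, the SMAD shared by both branches, was not called, at 17.4 RPKM in IRF8-deficient, 10.8 RPKM in 4T1-TB and 13.9 RPKM in NTB. Ski and Skil, repressors that act on SMADs, completed the 6 called higher, at 1.21 and 1.10. With summed reads neither was called, at 0.71 for Ski and 0.61 for Skil. Skil was named after its value was seen. With a pseudocount of 5, which shrinks the differences of low genes, only Inhba of the list was called in this comparison.

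In 4T1-TB against NTB 1 gene of that list was called higher, Bmpr1a, and 1 lower, Eng, beside 1.67% and 1.35% of all genes. The list's median was -0.10 beside 0.01 for all genes. In IRF8-deficient against 4T1-TB 5 were called higher and 0 lower, beside 8.83% and 7.07% of all genes. The median there was 0.37 beside -0.00 for all genes. With summed reads 2 were called higher, Inhba and Tgfbr3, and 1 lower, Tgfb1, beside 4.54% and 13.9% of all genes. The 5 were Inhba, Acvrl1, Tgfbr3, Ski and Smurf1, a ubiquitin ligase for SMADs, which was named after its value was seen.

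CDK inhibitors, RB family members and ETS factors are tied to Id proteins, since E proteins and ETS factors activate CDK inhibitor genes and ID2 binds RB. Of 12 listed, 10 were compared, and 6 were called higher in IRF8-deficient against NTB and 0 lower, beside 8.78% and 5.73% of all genes. Their median was 1.16 beside -0.02 for all genes. With summed reads 4 were called higher, beside 4.21% of all genes, and Cdkn1a and Rb1 lost their calls. The median was then 0.87 beside -0.50 for all genes. Cdkn2d, an inhibitor of CDK4 and CDK6, was at 71.0 RPKM in IRF8-deficient, 17.4 RPKM in 4T1-TB and 10.8 RPKM in NTB. Cdkn2c, from the same family, was at 55.6 RPKM in IRF8-deficient, 7.20 RPKM in 4T1-TB and 9.65 RPKM in NTB. Both are far above the other libraries in IRF8-deficient, at differences of 2.61 and 2.41 from NTB, as the Id genes are.

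Ets1, a founding ETS factor, was at 83.3 RPKM in IRF8-deficient, 24.5 RPKM in 4T1-TB and 22.3 RPKM in NTB. Cdkn1b, the CDK inhibitor KIP1, was at 41.1 RPKM in IRF8-deficient, 11.9 RPKM in 4T1-TB and 12.7 RPKM in NTB. Cdkn1a, a target of E proteins and of p53, reached 2.63 RPKM in IRF8-deficient, 0.511 RPKM in 4T1-TB and 0.529 RPKM in NTB. Rb1, the retinoblastoma gene, was called higher in IRF8-deficient against NTB at 1.07, and Rbl1, its relative, was not at 0.26. In 4T1-TB against NTB 0 of the 10 were called (median -0.05), beside 3.02% of all genes. In IRF8-deficient against 4T1-TB 6 were called higher and 0 lower (median 1.25), beside 8.83% and 7.07% of all genes.

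Partners that pair with E proteins on DNA were few. Of 21 tissue-restricted bHLH genes 4 reached 1 RPKM. Lyl1, a blood-forming bHLH factor, was at 75.4 RPKM in IRF8-deficient, 84.9 RPKM in 4T1-TB and 88.6 RPKM in NTB, above each E protein gene in every library and not called. Tal1, its close relative, was at 1.40 RPKM in IRF8-deficient, 4.19 RPKM in 4T1-TB and 3.47 RPKM in NTB. Tal2, also of that family, was at 1.44 RPKM in IRF8-deficient, 0 RPKM in 4T1-TB and 0.0976 RPKM in NTB, and was called higher in IRF8-deficient against both other libraries. Bhlha15, a factor of secretory cells, was at 0.406 RPKM in IRF8-deficient, 2.78 RPKM in 4T1-TB and 1.18 RPKM in NTB. The list held 1 gene called higher and 0 lower in IRF8-deficient against NTB, beside 8.78% and 5.73% of all genes. In 4T1-TB against NTB it held 0 either way, beside 3.02% of all genes. In IRF8-deficient against 4T1-TB it held 1 higher and 2 lower, Tal1 and Bhlha15, beside 8.83% and 7.07% of all genes. With 4 genes compared these counts are not a result about the list. The Tal2 calls ended with summed reads, where Tal2 fell below the minimum and Tal1 was called lower in IRF8-deficient against NTB at -1.19. All calls of this list ended with a pseudocount of 5. Its medians were -0.43, 0.08 and -0.64 in that order of comparisons, beside -0.02, 0.01 and -0.00 for all genes.

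Of 14 cofactors of the E protein complex 11 were compared. In IRF8-deficient against NTB 1 was called higher and 1 lower, in IRF8-deficient against 4T1-TB again 1 and 1, and in 4T1-TB against NTB 0, with medians of 0.02, 0.23 and -0.06. A count of 1 higher and 1 lower of 11 is near the 8.78% and 5.73% of all genes called in IRF8-deficient against NTB, so it is not a result about the list. Lmo2, the bridge between TAL1 or LYL1 and LDB1, was at 70.4 RPKM in IRF8-deficient, 81.6 RPKM in 4T1-TB and 85.2 RPKM in NTB. Lmo4, a related LIM-only protein, was the gene called higher, at 77.7 RPKM in IRF8-deficient, 26.2 RPKM in 4T1-TB and 26.6 RPKM in NTB. With summed reads it missed the call against NTB at 0.98, and the list's median there was -0.43 beside -0.50 for all genes. Cbfa2t3, a corepressor that binds E proteins, was the gene called lower, at 1.51 RPKM in IRF8-deficient, 4.87 RPKM in 4T1-TB and 5.03 RPKM in NTB, and it was not called with a pseudocount of 5.

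Other lists gave small counts. All 10 genes for turnover of Id and E proteins were compared and 0 were called in any of the 3 comparisons. Of all genes, 14.5% were called either way in IRF8-deficient against NTB. The share was 15.9% in IRF8-deficient against 4T1-TB and 3.02% in 4T1-TB against NTB. With 10 genes, a count of 0 is not a result about the list. Among the turnover genes Usp1, the deubiquitinase that stabilises Id proteins, was at 73.6 RPKM in IRF8-deficient, 69.5 RPKM in 4T1-TB and 68.3 RPKM in NTB. Of 12 HES, HEY and BHLHE repressors 2 were compared. Bhlhe40, which competes at E-boxes, was called higher in both comparisons of IRF8-deficient, at 14.0 RPKM in IRF8-deficient, 5.89 RPKM in 4T1-TB and 3.39 RPKM in NTB. Against 4T1-TB its call ended with summed reads (0.75) and with a pseudocount of 5 (0.80). Hes6, a HES relative, was not called, at 13.1 RPKM in IRF8-deficient, 13.8 RPKM in 4T1-TB and 17.1 RPKM in NTB.

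Lymphoid targets of E proteins were largely silent: of 17, among them Rag1 and Pax5, 3 reached 1 RPKM in any library. Notch1, the T cell fate receptor, was called higher in both comparisons of IRF8-deficient, at 25.3 RPKM in IRF8-deficient, 8.31 RPKM in 4T1-TB and 10.3 RPKM in NTB. Cd79b, a B cell receptor chain, was not called, at 10.3 RPKM in IRF8-deficient, 12.3 RPKM in 4T1-TB and 16.4 RPKM in NTB. In IRF8-deficient against NTB with summed reads, Notch1 was not called (0.70) and Cd79b was called lower (-1.11). In a list of 7 genes that are not E proteins, all with TCF names but for Lef1, Tcf7 was at 0.0856 RPKM in IRF8-deficient, 2.47 RPKM in 4T1-TB and 0.509 RPKM in NTB. It was called higher in 4T1-TB against NTB, though not with a pseudocount of 5 (0.44), and its pattern is unlike that of Tcf3, Tcf4 and Tcf12.

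**Figure D4:**
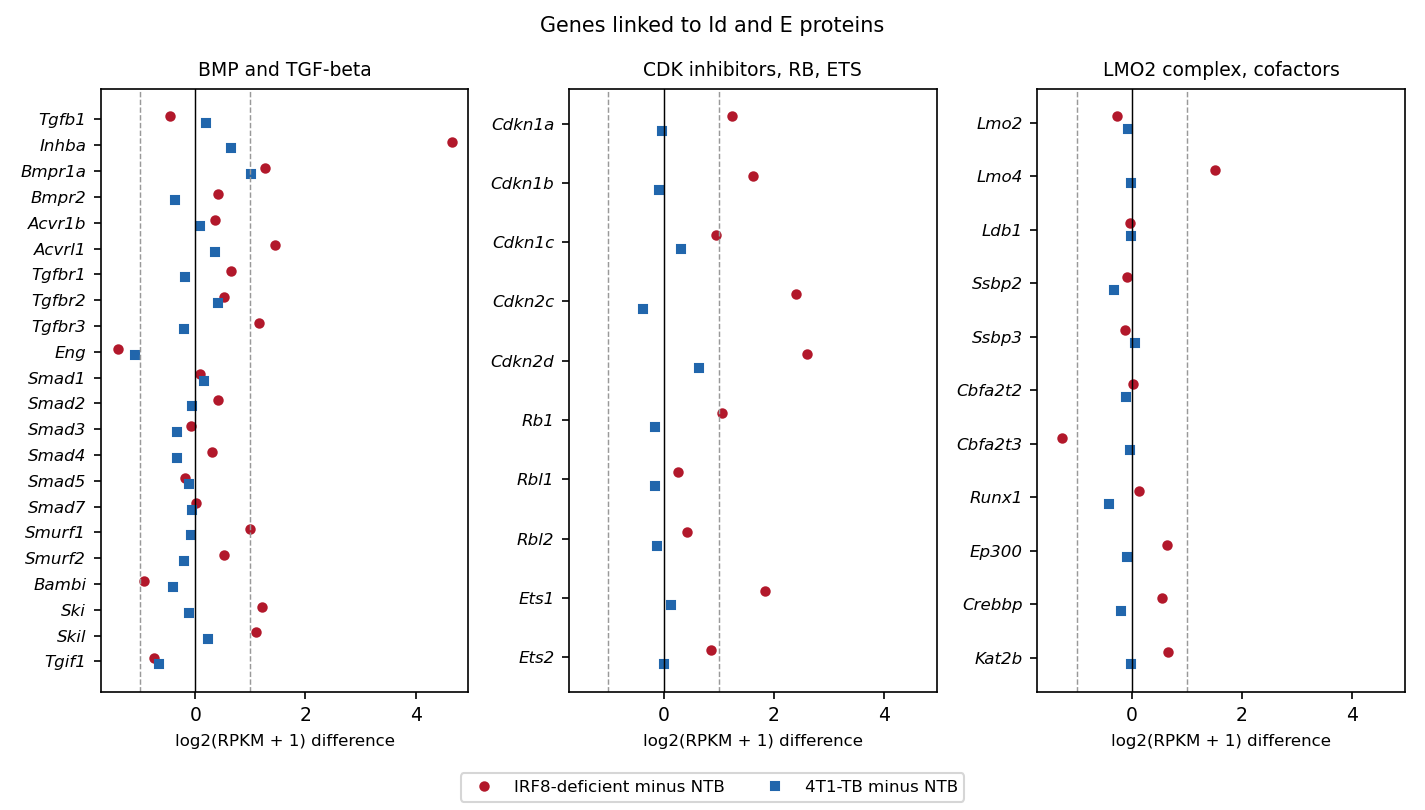
Differences on log2(RPKM + 1) for the compared genes of 3 lists linked to Id and E proteins, IRF8-deficient minus NTB (circles) and 4T1-TB minus NTB (squares), with dashed lines at the 2-fold call. Both differences share the NTB library; Inhba reaches 4.65 for IRF8-deficient, and 6 of 10 genes in the middle panel lie past the line on the right for IRF8-deficient and 0 for 4T1-TB.

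Genes with the pattern most like each member were taken as the nearest by distance over the 2 differences from NTB, among 8179 genes with at least 5 RPKM in 1 or more libraries. Id1 lay nearest to Plek, the platelet and leukocyte protein pleckstrin, at a distance of 0.0902, then to Pi16 and Lpcat2. Plek was at 19.1 RPKM in IRF8-deficient, 8.32 RPKM in 4T1-TB and 4.09 RPKM in NTB. Id2 lay nearest to Scrg1 at 0.104, then to Itgb2, the beta chain of the leukocyte integrins, at 0.152 and to Anxa2, an annexin, at 0.18. Scrg1 was at 5.85 RPKM in IRF8-deficient, 0.643 RPKM in 4T1-TB and 0 RPKM in NTB. At such low levels its nearness to Id2 rests on the pseudocount of 1. Itgb2 was at 362 RPKM in IRF8-deficient, 69.6 RPKM in 4T1-TB and 49.1 RPKM in NTB. The patterns of the Id genes were shared by few genes: within a distance of 0.25 lay 12 genes for Id1 and 6 for Id2, against 1411 for Tcf3, 531 for Tcf4 and 1021 for Tcf12. The nearest were Arhgap10, Cnih1 and Arglu1 for Tcf3, Prpsap1, Mga and Mtif2 for Tcf4, and Tsc2, Usp45 and Mettl25 for Tcf12. Likeness over 3 libraries is weak, since many genes lie near any point close to 0.

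Members differ in how far their reads could be shared with other genes. Id1, at chr2:152736251-152737410, and Id2, at chr12:25093799-25097140 (mm10), overlap no other annotated gene. Id2 shares a run of 50 bases with 1 other gene, the predicted Gm6175, and Id1 and Tcf3 share none. Tcf3 lies at chr10:80409514-80433647. Tcf12, at chr9:71842688-72111871, and Tcf4, at chr18:69343356-69689079, have long annotated transcripts that share such runs with 615 and 591 other genes, and the sources used here do not say how reads there were assigned. In GENCODE 11 genes overlap Tcf12 and 1 overlaps Tcf4, none of them matched to a row of values here, and 2 overlap Id4 on the other strand.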

How the data were processed

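RNA from granulocyte progenitors was measured in 3 libraries, 1 per group, grouped by the mouse model in the labels. Per the labels' protocols TRIzol was used for extraction, followed by a standard Illumina library preparation. The authors deposited RPKM for 24421 symbols per library. Per the submitters' processing notes, which give no roles, build mm10 was used with edgeR 3.12.1, HTSeq 0.6.1, TopHat2 2.0.13, Picard 1.97, CASAVA 1.8.2 and cutadapt 1.2.1. The sources used here do not state the annotation, the strand setting or how library sizes were formed.

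Deposited RPKM were compared on log2(RPKM + 1), a scale that understates differences at low levels, over 10658 genes with at least 1 RPKM in 1 or more libraries. A difference of 1 or more in size was called. With 1 library per group no test was possible. Whole reads were recovered from the ratios of a gene's RPKM between libraries, with gene lengths settled by GENCODE M21 (mm10). Implied lengths were whole to within 0.02 base for 99% of 10389 genes checked, and 92.3% of 14553 were within 0.8 to 1.25 of the reference, which had helped to choose them. The recovery was tested on simulated data. Levels carry exact Poisson intervals, ratios between libraries exact binomial (Clopper-Pearson) intervals, and the Id to E ratio a delta-method interval, all at 95% for counting error only. Reads without molecular identifiers are not independent molecules.

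Members and gene lists were chosen with earlier results of these data known. Besides all members and Irf8, the text names up to 6 genes per pathway list past the call in any comparison, by size, the 2 highest in NTB, and the 3 genes nearest each member, leaving out predicted and ribosomal protein genes. A gene that this rule names is not reported here. Alternatives were pseudocounts of 0.1 and 5, 3 other scalings, other filters, a 4-fold call, thinned reads and annotated lengths. Biopython 1.88, matplotlib 3.10.9, pandas 2.3.3, scipy 1.17.1 and numpy 2.4.6 were run under Python 3.11.15.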

Additional observations from a re-analysis of the deposited data

How the results depend on the processing

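Id1 and Id2 were called higher in IRF8-deficient against NTB under the other pseudocounts, scalings, filters, the 4-fold call and thinned reads, and 0 members were called in 4T1-TB against NTB under these. Annotated lengths were used for the Id to E ratio only. In IRF8-deficient against 4T1-TB the count of members called higher fell to 1, Id2, with summed reads and at a 4-fold call. Counts over all genes (higher, then lower) moved with the setting. With a pseudocount of 0.1 they were 282 and 354 in 4T1-TB against NTB, and 1071 genes were lower in IRF8-deficient against NTB. With a pseudocount of 5 they were 65 and 21 in 4T1-TB against NTB, 526 and 149 in IRF8-deficient against NTB, and 475 and 311 in IRF8-deficient against 4T1-TB. With summed reads they were 443 and 1849 in IRF8-deficient against NTB, and 478 and 1464 in IRF8-deficient against 4T1-TB. A minimum of 5 RPKM gave 115 and 74 in 4T1-TB against NTB, where fewer genes were compared. A 4-fold call gave 47 and 5 in 4T1-TB against NTB, 203 and 41 in IRF8-deficient against NTB, and 178 and 50 in IRF8-deficient against 4T1-TB.

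Of the 62 genes compared over the 7 pathway lists, IRF8-deficient against NTB gave 16 higher and 2 lower (8.78% and 5.73% of all genes), IRF8-deficient against 4T1-TB 15 and 3 (8.83% and 7.07%), and 4T1-TB against NTB 1 and 1 (1.67% and 1.35%). For IRF8-deficient against NTB the number higher was 7 with a pseudocount of 5, 7 with summed reads and 3 at 4-fold. The shares of all genes called higher in these settings were 4.94%, 4.21% and 1.9%. The number lower was 5 with a pseudocount of 0.1, 0 with a pseudocount of 5, 6 with summed reads, 1 with a minimum of 5 RPKM and 0 at 4-fold. The shares of all genes called lower in these settings were 10%, 1.4%, 17.6%, 5.06% and 0.385%. For IRF8-deficient against 4T1-TB the number higher was 8 with a pseudocount of 5, 8 with summed reads and 2 at 4-fold. All genes gave 4.46%, 4.54% and 1.67% there. The number lower was 0 with a pseudocount of 5, 1 with a minimum of 5 RPKM and 0 at 4-fold, beside 2.92%, 7.11% and 0.469% of all genes. For 4T1-TB against NTB the number higher was 5 with a pseudocount of 0.1 and 0 with a pseudocount of 5, without the 20 highest genes, with summed reads, with a minimum of 5 RPKM, at 4-fold and with thinned reads. The number lower was 0 with a pseudocount of 5, with a minimum of 5 RPKM and at 4-fold. For 4T1-TB against NTB 2.65% of all genes were called higher with a pseudocount of 0.1, and at most 1.63% in the other settings named. In the 3 settings with 0 lower, 0.197%, 0.868% and 0.0469% of all genes were called lower. The cause of these shifts was not tested.

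The Id to E ratio was 4.04 in IRF8-deficient, 0.956 in 4T1-TB and 0.51 in NTB with thinned reads, and 3.98 in IRF8-deficient, 0.972 in 4T1-TB and 0.537 in NTB with annotated lengths. No called member difference turned sign. No paired analysis was possible because each group has 1 library. With 1 library per group the spread between mice is unknown, and depth limits Id3 and Id4 to an upper bound.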
